A study of Mus musculus with 5 samples.

Results

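The genes of the photoreceptor cilium were followed on 5 Affymetrix arrays of mouse retina, for 37 genes of the BBSome, of intraflagellar transport and of the connecting cilium. They were chosen by name: a gene counted as measured where the array annotation paired a probe set with its symbol and no other, and the brightest such probe set on average stood for the gene. Of the 37 genes 36 were measured this way, out of 18193 genes on the array, and Arl6, the small GTPase that recruits the BBSome to membranes, is not analysed here. All 36 passed the filter on dim genes and were tested.

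Each array held total RNA of pooled whole retinas. The diabetic group had 3 pools. Diabetic replicates 1 and 2 were each made of 4 retinas from 2 mice, 5 weeks into diabetes brought on by streptozotocin, which destroys the insulin-producing cells. Diabetic replicate 3 was made of 6 retinas from 3 mice after 3 to 4 weeks of diabetes, for which the labels name no agent. The control group had 2 pools, each of 4 retinas from 2 mice that were untreated, matched in age and normal in blood glucose. The labels give no strain, sex or age. They also do not say whether the pools were processed together. The p-values and SEs rest on the spread between these pools, which limma combines with the spread of the other genes tested.

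A photoreceptor outer segment is a modified primary cilium, joined to the cell body by a narrow connecting cilium through which all opsin and other disc proteins must pass. Intraflagellar transport (IFT) trains carry cargo along its axoneme: the IFT-B complex is moved outward by kinesin-2 motors, and the IFT-A complex takes part in the return by dynein and in the entry of membrane proteins. The BBSome is an adaptor that rides on these trains and removes proteins that do not belong in the outer segment. Mutations in many of these genes cause retinitis pigmentosa, Leber congenital amaurosis or Bardet-Biedl syndrome.

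Promoter sequences are shown for 6 genes: the 5 whose diabetic and control pools did not overlap, and Kif17, which holds a complete X-box. The X-box is the binding site of RFX factors, regulators of ciliary genes, and an arm of it was searched as GTTGCC. The site of CRX, a photoreceptor transcription factor, was searched as CTAATCC. Both strands were read, and the complete X-box, added to the search after the data were seen, overlaps its arms. The complete X-box was searched in a looser form, as GTYRCC, up to 3 bases of any kind and RGYAAC. Y stands for C or T, and R for A or G. The sequences are from RefSeq on build GRCm38.p6, run 5′ to 3′ on the strand of the gene and end at the base before its annotated start. Capitals mark the matches.
Rpgrip1, chr14:52110783-52110902, plus strand: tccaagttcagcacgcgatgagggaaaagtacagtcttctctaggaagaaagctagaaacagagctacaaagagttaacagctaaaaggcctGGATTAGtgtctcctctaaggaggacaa
Spata7, chr12:98628022-98628141, plus strand: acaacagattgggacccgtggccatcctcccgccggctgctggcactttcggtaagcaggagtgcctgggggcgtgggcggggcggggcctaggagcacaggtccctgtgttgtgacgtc
Ift46, chr9:44772889-44773008, plus strand: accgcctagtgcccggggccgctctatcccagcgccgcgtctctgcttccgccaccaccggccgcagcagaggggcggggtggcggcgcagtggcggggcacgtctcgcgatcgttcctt
Ift57, chr16:49699174-49699293, plus strand: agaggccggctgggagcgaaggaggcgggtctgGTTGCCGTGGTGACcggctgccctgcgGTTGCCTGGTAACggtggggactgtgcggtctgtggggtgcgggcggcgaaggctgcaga
Ift140, chr17:25015962-25016085, plus strand: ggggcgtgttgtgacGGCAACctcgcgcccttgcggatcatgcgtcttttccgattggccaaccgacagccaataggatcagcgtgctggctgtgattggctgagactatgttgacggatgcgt
Kif17, chr4:138262131-138262250, plus strand: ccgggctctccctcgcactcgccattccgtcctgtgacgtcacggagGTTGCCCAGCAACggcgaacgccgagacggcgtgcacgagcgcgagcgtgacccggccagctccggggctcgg

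Promoters reaching from 250 bases before to 50 after the start were found for 34 of the 37 genes, Arl6 included. The X-box arm was in a promoter of 12 of these 34 genes, or 35.3%, against 14.14% of 27025 genes. The 12 were Bbs1, Bbs5, Bbs7, Ift27, Ift57, Ift88, Ift140, Ift172, Kif3a, Kif17, Lca5 and Nphp4. The complete X-box was in 3 of the 34, Bbs1, Ift57 and Kif17, against 1.32% of all genes. Ift57 held 2 of them upstream of its start, at bases -87 to -74, on the strand opposite to the gene, and at -60 to -48. The CRX site was in Rpgrip1 alone among the 34, at bases -28 to -22, against 2.34% of all genes. These are matches of letters, and the arrays do not measure binding.

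Photoreceptor and ciliary transcripts both gave signals above the filter on dim genes. All 6 rod markers analysed were above the filter, with Gnat1, the rod transducin, at 16.85, 16.67 and 16.92 in the diabetic pools (replicates 1, 2 and 3, the order used throughout) and 16.82 and 16.69 in the controls (replicates 1 and 2), on the scale log2(signal + 120.6). The 36 cilium genes had mean levels from 10.52 to 15.66 on that scale, where the filter lay at 9.70 and passed 60% of genes. Probe sets differ in how well they bind their transcript, so these levels do not order the genes by abundance. Markers of motile cilia, which beat and are built with the same IFT machinery, were dim. Of 9 such markers 8 lay below the filter, among them Foxj1, the master factor of motile ciliogenesis, and the exception was Ccdc39 at 12.18. The median of the 9 ran from 8.42 to 8.66 in diabetic and from 8.09 to 9.05 in control pools.

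**Figure D1:**
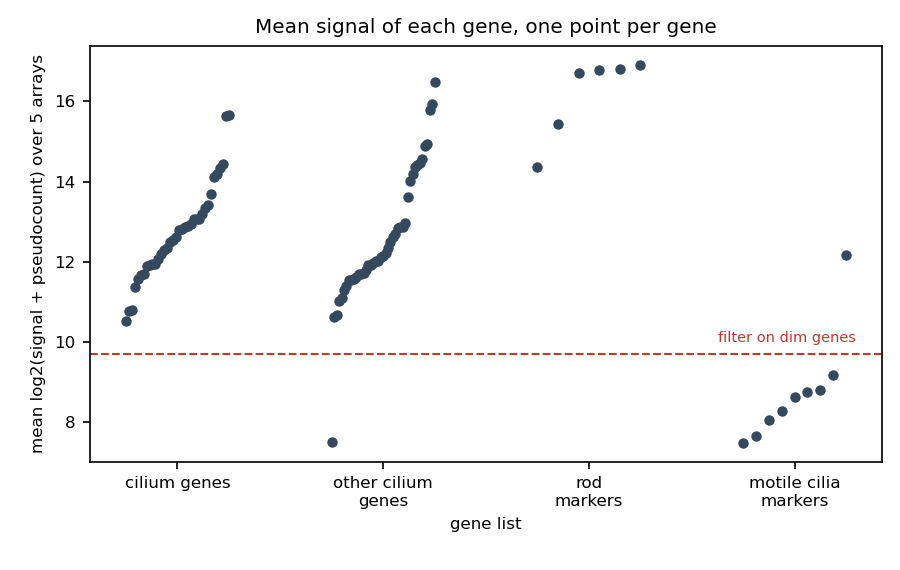
Mean log2(signal + pseudocount) over the 5 arrays on the vertical axis for each gene, 1 point per gene, in 4 gene lists on the horizontal axis, with the filter on dim genes as a dashed line. All 36 cilium genes and all 6 rod markers lie above the line, and 8 of 9 motile cilia markers lie below it.

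Diabetic and control pools did not differ detectably in the cilium genes. In limma, with Benjamini-Hochberg adjustment over the 10916 genes tested, 0 of the 36 had an adjusted p under 0.05 (0.999 for every one), as did 0% of all genes tested. The unadjusted p was under 0.05 for 1 of the 36, Rpgrip1, which was lower in diabetic pools. Such a p was found for 370 of all genes tested, or 3.39%, and for 1.59% in the lower direction. The differences, diabetic minus control, ran from -0.25 for Spata7 to 0.22 for Ift27 on the log2 scale, with a median of -0.021 against 0.0060 over all genes tested. There were 21 genes with a negative and 15 with a positive difference, 58.3% below 0 against 48.1% of all genes. With each array centred on its median the split was 13 below and 23 above 0, against 34.2% of all genes below 0. In bulk RNA, fewer photoreceptors and less transcript per photoreceptor cannot be told apart. The pools were whole retinas, and the arrays do not show which cells the cilium transcripts came from.

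For the brightest probe set of each gene, the data bound the size of a change. In 31 of 36 genes, or 86.1%, the unadjusted 95% interval lay within 0.5 log2 units of 0, against 73.7% of all genes tested. The other 5 were Bbs10, Ift27, Tulp3, Kif17 and Spata7, and the intervals of all 36 lay within 1 log2 unit. These shares were not matched for level. Some probe sets below the filter lay outside the interval of their gene, such as 0.83 for Nphp4 and -0.59 for Rp2. The groups did not overlap in 5 of 36 genes, or 13.9%, against 18.1% of all genes tested. These were Rpgrip1, Spata7 and Ift46, lower in the diabetic pools, and Ift57 and Ift140, higher in them, where 8.15% of all genes tested lay lower and 9.99% higher without overlap.

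**Figure D2:**
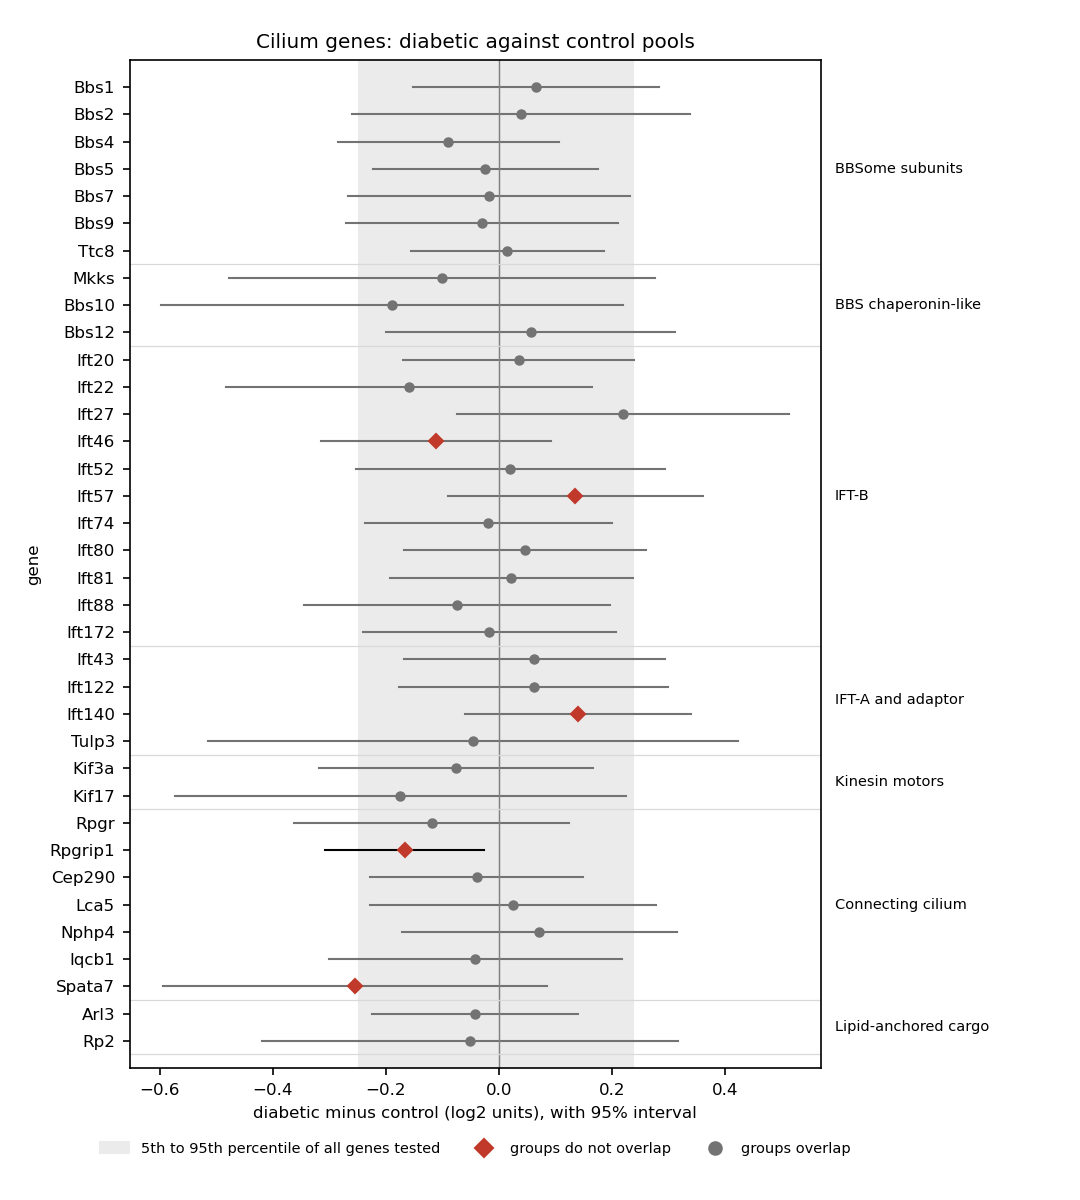
Diabetic minus control difference in log2 units on the horizontal axis with its 95% interval from limma, for the 36 genes on the vertical axis, ordered by role. Diamonds mark the 5 genes whose groups do not overlap, the grey band spans the 5th to 95th percentile of all genes tested (-0.25 to 0.24), and only the interval of Rpgrip1 leaves out 0.

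The connecting cilium genes build the gate between inner and outer segment. Rpgrip1, which anchors the GTPase regulator Rpgr there, had levels of 15.60, 15.58 and 15.60 in the diabetic and 15.78 and 15.74 in the control pools. All 3 diabetic pools lay below both controls, and the pools of a group lay close together. The means were 15.59 ± 0.01 (SD, n = 3) and 15.76 ± 0.03 (SD, n = 2), a difference of -0.17 (SE 0.06, 95% interval -0.31 to -0.03) or 0.891 of the control level. The SE is from limma and draws on the spread of other genes, so it does not follow from these SDs alone. The limma test gave an unadjusted p of 0.0249 and an adjusted p of 0.999. With single arrays left out the difference lay between -0.19 and -0.14. The interval included 0 without diabetic replicate 3, without either control, without both arrays of high muscle signal (described with Mkks), with a replicate block, with arrays centred on their medians and without the variance trend.

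Rpgrip1 had 4 probe sets, of which 3 were above the filter, and in these 3 the groups did not overlap. The second of them was at 14.77, 14.77 and 14.74 in the diabetic and 15.01 and 14.97 in the control pools, a difference of -0.23. The third was at 13.14, 12.90 and 13.20 against 13.22 and 13.23, a difference of -0.15. The dim probe set had overlapping groups and a difference of 0.16. Its inclusion in a mean over the 4 probe sets gave -0.10, with an interval that included 0. The probe sets measure the same RNA extracts and are not replicates of one another.

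Spata7, which keeps the Rpgrip1 complex at the connecting cilium, was at 10.83, 10.53 and 10.68 in the diabetic and at 10.92 and 10.94 in the control pools. The groups did not overlap, and diabetic replicate 2 was the lowest. The difference was -0.25 (SE 0.15, 95% interval -0.59 to 0.09), and -0.18 without diabetic replicate 2. It had 1 probe set.

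The remaining connecting cilium genes had overlapping groups. Rpgr, mutated in X-linked retinitis pigmentosa, was at 13.04, 13.33 and 13.09 in the diabetic and 13.26 and 13.29 in the control pools. Diabetic replicate 2 was the highest of the 5 and diabetic replicates 1 and 3 the lowest, so the difference of -0.12 (95% interval -0.36 to 0.12) was -0.21 (-0.39 to -0.03) without diabetic replicate 2, with an adjusted p of 0.849 in limma. Cep290, a protein of the links between axoneme and membrane, differed by -0.04 (95% interval -0.23 to 0.15), and its binding partner Iqcb1 by -0.04 (-0.30 to 0.22). Lca5, lebercilin, differed by 0.02 (-0.23 to 0.28) and Nphp4, nephrocystin, by 0.07 (-0.17 to 0.31). Each has a second probe set below the filter, with differences of 0.17 and 0.83, and the mean over both probe sets gave 0.097 for Lca5 and 0.45 for Nphp4. Over the 7 genes 5 differences were negative, with a median of -0.04. It was -0.11 when control replicate 2 was left out, -0.0053 when control replicate 1 was, and 0.0012 with arrays centred on their medians.

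The 7 BBSome subunits had differences between -0.09 and 0.07, with every 95% interval within 0.5 log2 units of 0. The median was -0.017, and it was 0.026 without diabetic replicate 2, 0.036 without control replicate 1 and 0.026 with arrays centred on their medians. Bbs4 had the largest of the 7. It was at 14.34, 14.54 and 14.33 in the diabetic and at 14.49 and 14.50 in the control pools, a difference of -0.09 (SE 0.09, 95% interval -0.28 to 0.11). Diabetic replicate 2 lay above both controls and the other diabetic pools below them, and without diabetic replicate 2 the difference was -0.16 (adjusted p = 0.852 in limma). This pattern held for 1 probe set of Bbs4. In its other probe sets, also above the filter, diabetic replicate 2 was the lowest array. Their differences were -0.04, -0.05 and 0.13, and the mean over all Bbs4 probe sets gave -0.0094. Bbs1, Bbs2 and Ttc8 had differences of 0.07, 0.04 and 0.015, and Bbs5, Bbs7 and Bbs9 of -0.02, -0.02 and -0.03. Ttc8 varied least of the 7, between 14.30 and 14.41 over the 5 arrays. None of the 7 had groups that did not overlap, against 18.1% of all genes tested.

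Mkks, Bbs10 and Bbs12 encode chaperonin-like proteins that help to assemble the BBSome. Bbs10 was at 10.82, 10.45 and 10.86 in the diabetic and at 11.05 and 10.74 in the control pools, with overlapping groups and a difference of -0.19 (SE 0.18, 95% interval -0.60 to 0.22). Without control replicate 2 the difference was -0.34, and with control replicate 2 as the sole control it was -0.035. Bbs12 differed by 0.06 (95% interval -0.20 to 0.31).

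Mkks did not follow the groups. It was at 12.16 and 12.09 in diabetic replicates 1 and 2 and at 12.15 in control replicate 1, but at 12.52 in diabetic replicate 3 and 12.56 in control replicate 2. Its other probe set was split in the same way, at 11.07, 11.06 and 11.03 against 11.57 and 11.66. The same 2 arrays carried a strong skeletal muscle signal, with a median over 8 muscle markers of 12.70 in diabetic replicate 3 and 12.24 in control replicate 2, against 7.92 to 8.40 in the others. The part of that signal in the Mkks values was not tested. The diabetic minus control difference of Mkks was -0.10 (SE 0.17, 95% interval -0.48 to 0.28), with values of 0.11 and -0.31 when control replicate 2 or 1 was left out.

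**Figure D3:**
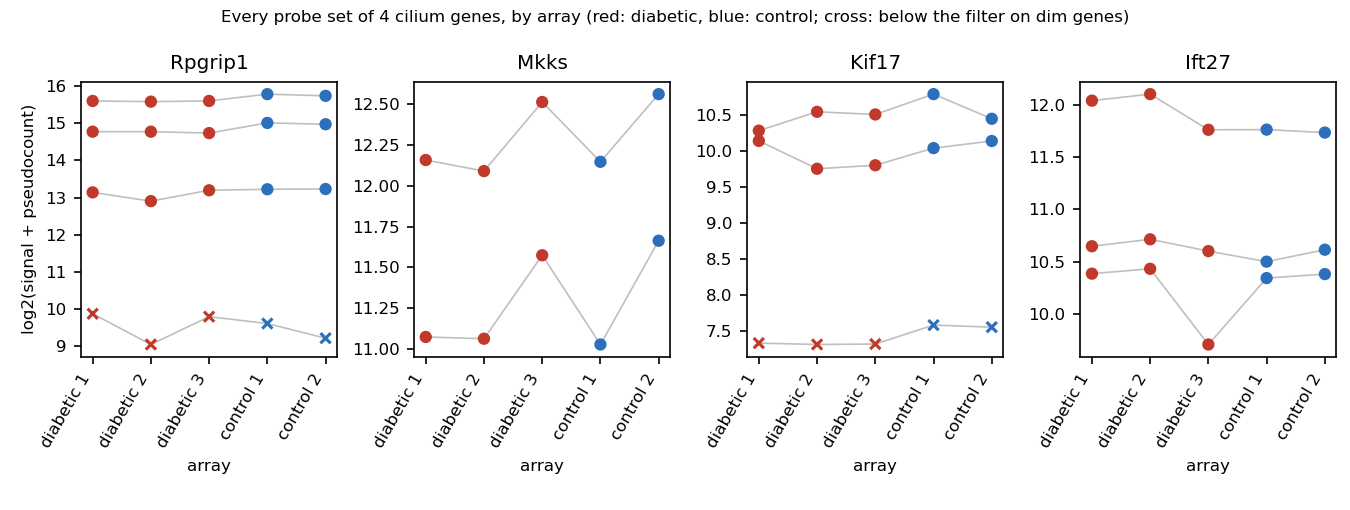
Log2(signal + pseudocount) of every probe set of Rpgrip1, Mkks, Kif17 and Ift27 on the vertical axis, for the 5 arrays on the horizontal axis, with diabetic pools in red and control pools in blue. Lines join the points of 1 probe set and crosses mark probe sets below the filter. The 3 upper Rpgrip1 probe sets are lower in every diabetic pool, and both Mkks probe sets are high in diabetic replicate 3 and control replicate 2.

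The IFT-B complex was measured in 11 genes, 6 with a positive and 5 with a negative difference. Their median was 0.020, but -0.021 without diabetic replicate 3 and -0.0010 without diabetic replicate 1. With arrays centred on their medians it was 0.063, against 0.049 over all genes tested. Ift27, a Rab-like GTPase of the complex that takes part in BBSome exit from cilia, had the largest difference. It was at 12.04, 12.11 and 11.76 in the diabetic and at 11.77 and 11.74 in the control pools. Diabetic replicates 1 and 2 were above both controls, and diabetic replicate 3 lay between them. The difference was 0.22 (SE 0.13, 95% interval -0.07 to 0.51). Without diabetic replicate 3 it was 0.32 (0.04 to 0.60, adjusted p = 1 in limma). Its other probe sets differed by 0.10 and -0.19, so the direction was not shared by all 3.

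Ift57, a peripheral IFT-B subunit, was at 12.41, 12.46 and 12.34 in the diabetic and at 12.21 and 12.32 in the control pools. The groups were separated by a gap of less than their own spread. The difference was 0.14 (SE 0.10, 95% interval -0.09 to 0.36), and 0.08 without control replicate 1. Its other probe set was below the filter and differed by -0.01. Ift46, a core subunit, was at 12.73, 12.69 and 12.80 against 12.84 and 12.86, without overlap and with a difference of -0.11 (SE 0.09, 95% interval -0.31 to 0.09).

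Ift22, a further Rab-like GTPase of IFT-B, was at 11.95, 11.60 and 12.01 in the diabetic and at 12.08 and 11.95 in the control pools. Only diabetic replicate 2 stood apart, and without it the difference of -0.16 was -0.03. Ift52 and Ift88, also core subunits, differed by 0.02 (95% interval -0.25 to 0.29) and -0.07 (-0.34 to 0.20). Ift74 and Ift81, which together bind tubulin, differed by -0.02 and 0.02, Ift80 by 0.05, Ift20 by 0.03 and Ift172 by -0.02. Ift172 was within 0.07 and Ift20 within 0.08 log2 units over all 5 arrays.

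The IFT-A genes had positive differences, apart from the adaptor Tulp3. The median of the 4 was 0.06, and -0.0086 without diabetic replicate 2. Ift140, a core subunit, was at 13.02, 12.94 and 13.05 in the diabetic and at 12.87 and 12.86 in the control pools, without overlap. The difference was 0.14 (SE 0.09, 95% interval -0.06 to 0.34), and it stayed between 0.11 and 0.17 with single arrays left out. Ift43 and Ift122 each differed by 0.06 (95% intervals -0.17 to 0.29 and -0.18 to 0.30), and the other probe set of Ift122 by -0.08. Tulp3, which loads receptors onto IFT-A, was at 11.34, 11.78 and 11.50 against 11.26 and 11.91. Its 2 controls lay on either side of the diabetic pools, which gave an interval from -0.51 to 0.42 around a difference of -0.05. Leaving out control replicate 1 or 2 gave -0.37 or 0.28. The other Tulp3 probe sets, below the filter, differed by 0.41 and 0.20, the latter higher in diabetic pools without overlap. The mean over all Tulp3 probe sets gave 0.19.

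The kinesin-2 genes among the members, Kif17 and Kif3a, both had negative differences. The mean of the pair was -0.13, and it became 0.0082 or -0.26 when control replicate 1 or 2 was left out. Kif17, which forms a homodimeric motor, was at 10.29, 10.55 and 10.51 in the diabetic and at 10.79 and 10.45 in the control pools, a difference of -0.17 (SE 0.17, 95% interval -0.57 to 0.22). Its other 2 probe sets differed by -0.19 and -0.25, and the latter, below the filter, had groups that did not overlap. Leaving out control replicate 1 gave a Kif17 difference of -0.0029, and leaving out control replicate 2 gave -0.35. Kif3a, a subunit of the heterotrimeric motor, differed by -0.08 (SE 0.11, 95% interval -0.32 to 0.17), and its 4 probe sets by -0.08, 0.02, 0.14 and -0.01.

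Arl3 and Rp2 act on lipid-anchored cargo: Arl3 releases such proteins from their carriers in the cilium, and Rp2 is the protein that switches Arl3 off. Arl3 was at 15.50, 15.68 and 15.70 in the diabetic and at 15.70 and 15.63 in the control pools, with overlapping groups and a difference of -0.04 (SE 0.08, 95% interval -0.23 to 0.14). Rp2 was at 11.44, 11.51 and 11.10 against 11.26 and 11.55, a difference of -0.05 (SE 0.16, 95% interval -0.42 to 0.32). Of the 5 Rp2 probe sets 2 were above the filter, and they differed by -0.05 and 0.13. In the latter the groups did not overlap, at 11.27, 11.10 and 11.09 in the diabetic and 11.01 and 11.04 in the control pools. The Rp2 probe sets below the filter differed by -0.59, 0.05 and -0.05. In the first of these the groups did not overlap, lower in diabetic pools. In all, 11 of the 36 genes had 2 or more probe sets above the filter, and in 5 of these the probe sets differed in opposite directions.

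The cilium genes varied little between arrays, with a median range over the 5 arrays of 0.24 log2 units against 0.32 over all genes tested. This comparison was not matched for level, and the part of level in it was not tested. The median percentile of the cilium genes by mean level was 79.1 among all genes on the array. Diabetic replicate 2 departed most. It was the lowest array for 15 of the 36 genes, or 41.7%, against 19.5% of all genes tested, and the highest for 8, or 22.2%, against 32.8%. The median distance of a cilium gene from its mean was 0.12 log2 units in this array and 0.06 to 0.08 in the others, and over all genes tested it was 0.11 in this array and 0.07 to 0.09 in the others. The ratio of 3′ over 5′ signal of control probe sets reflects RNA integrity. For beta-actin it was 4.32 in this array and 2.01 to 2.71 in the others. For Gapdh it was 0.901 in this array and 0.784 to 0.838 in the others. The part of RNA integrity in the values was not tested. Without diabetic replicate 2 the median difference of the 36 genes was -0.015, with 20 below 0. The groups did not overlap in any of the 6 pigment epithelium markers, all of them lower in diabetic pools, with a median difference of -1.36, and their part in the cilium values was not tested. The 6 rod markers had a median difference of 0.05 (-0.06 without control replicate 2, and -0.0019 after quantile normalization), with intervals all within 0.5 log2 units of 0.

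**Figure D4:**
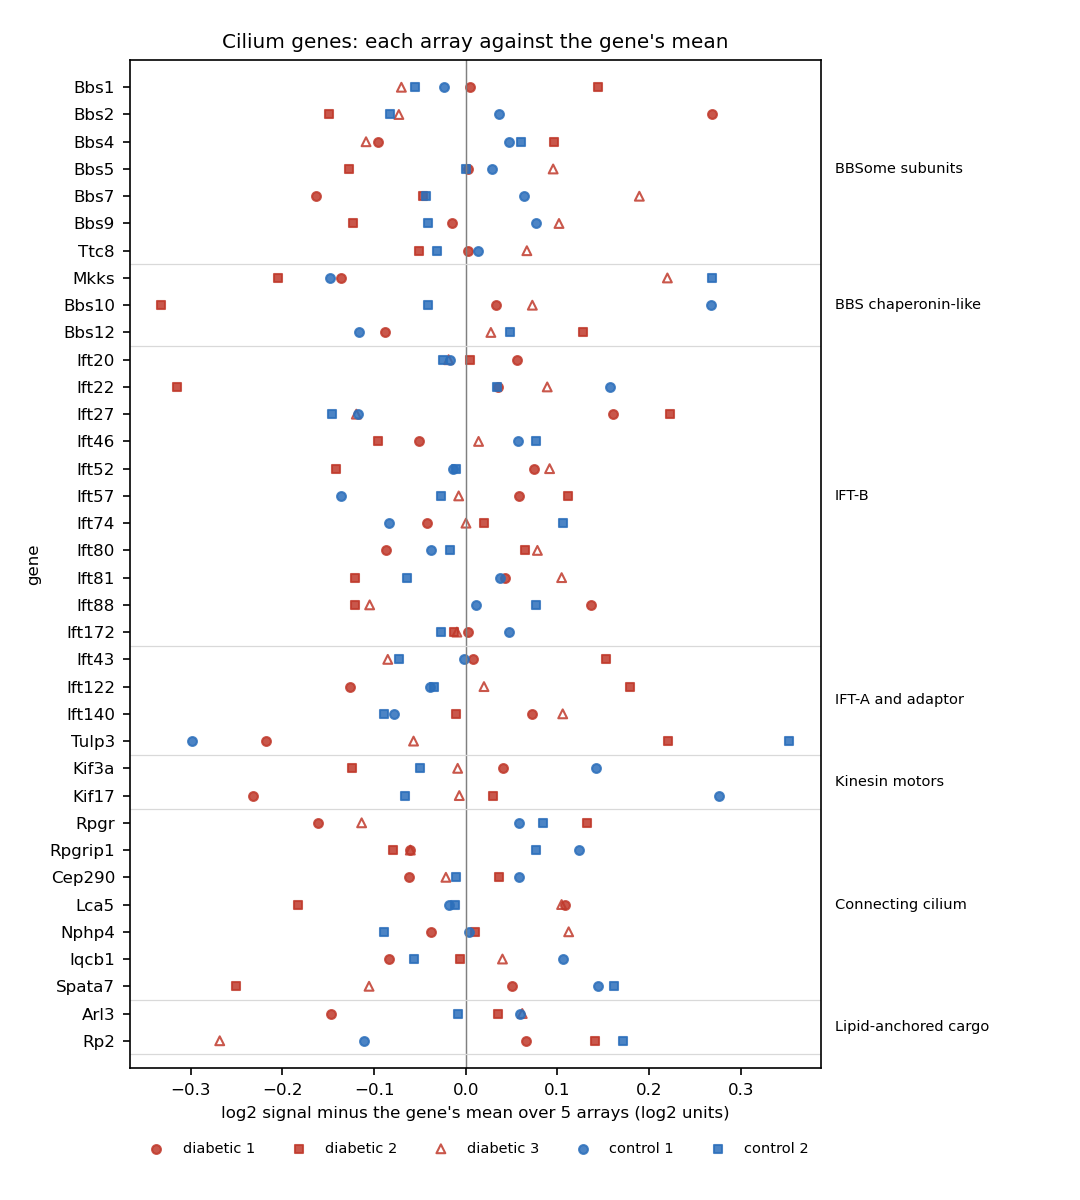
Log2 signal of each array minus the mean of the gene over the 5 arrays, in log2 units on the horizontal axis, for the 36 genes on the vertical axis, ordered by role, with diabetic pools in red and control pools in blue. Filled red squares, diabetic replicate 2, are the lowest point in 15 genes, and no role group separates red from blue throughout.

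Of 46 further cilium genes, listed for the same complexes and for the transition zone, basal body and axoneme, 43 were measured and 42 tested. In the same limma fit 0 of the 42 passed, and 0 had an unadjusted p under 0.05, against 3.39% of all genes tested. There were 25 negative and 17 positive differences with a median of -0.011 (0.0040 without diabetic replicate 2, and 0.03 with arrays centred on their medians). The groups did not overlap in 5, or 11.9%, against 18.1% of all genes tested. Those of smallest p with negative differences were Mks1 and B9d1, proteins of the transition zone, and Hspb11, the partner of Ift27 in the IFT-B complex. Mks1 was at 11.68, 11.54 and 11.55 in the diabetic and 11.84 and 11.81 in the control pools, without overlap and with a difference of -0.24 (SE 0.11, 95% interval -0.49 to 0.01). B9d1 differed by -0.15 (-0.44 to 0.15) and Hspb11 by -0.18 (-0.53 to 0.18). Those of smallest p with positive differences were Ahi1, a transition zone protein, at 0.12 (-0.07 to 0.32), the BBSome subunit Bbip1 at 0.11 (-0.07 to 0.28) and Dync2h1, the heavy chain of the motor for the return, at 0.19 (-0.13 to 0.50).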

How the data were processed

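The deposited table holds linear signal intensities of 45101 probe sets, 64 of them controls. The authors' summarization method is not given in the sources used here, and all 5 deposited intensity columns share a trimmed mean of 2500. Median signals ran from 634.6 to 714.7. Symbols were taken from 34945 probe sets with 1 symbol and updated by Entrez ID through a GRCm38.p6 gene table (34741 matched). Values were log2(signal + 120.6), the pseudocount being the 20th percentile, and fold changes on this scale understate those of dim genes. The upper 60% of 18193 genes by mean level, 10916, were tested with limma 3.58.1 in R 4.3.3 (lmFit, eBayes with a trend, 3 residual degrees of freedom, Benjamini-Hochberg at 0.05). The fit was tested on simulated data. All 37 members are named, with per-array values, by rule, for those whose groups did not overlap, whose interval excluded 0 or whose difference was the largest of their role. Those of Rpgr, Mkks, Ift22, Tulp3 and Arl3 were added after their values were seen. Of the further cilium genes the 3 of smallest p per direction are named. The members and lists were chosen with earlier results of these data known. Promoters came from RefSeq, and the complete X-box was added to the motifs after the data were seen. Replicate numbers shared by the groups name pools and were not taken as pairs. Figures were drawn with matplotlib 3.10.9. Alternatives were quantile normalization, median centring, pseudocounts of 1 and 690, no filter, the mean over probe sets, no variance trend, a replicate block and each array left out. The number of arrays, 5, limits the precision.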

Additional observations from a re-analysis of the deposited data

Results flagged for a closer look

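Diabetic replicate 2 stood above both control arrays in control probe sets that the gene comparison did not use. Its beta-actin ratio of 3′ over 5′ signal was 4.32, against 2.52 and 2.71 in the controls. The Gapdh ratio differed less, at 0.901 against 0.822 and 0.811. For 18S ribosomal RNA its 3′ probe set read 11744 (controls 2940 and 2993), its 5′ probe set 11259 (controls 1931 and 1668) and its middle probe set 7087 (controls 1801 and 1949). The cilium genes had their lowest value in this array in 15 of 36 cases. Groups of 3 and 2 arrays are too small for a search for single outlying arrays.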

How the results depend on the processing

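With 5 arrays no cilium gene passed under any of the 13 alternative settings or without both arrays of high muscle signal, a choice made after the data were seen. Over all genes tested the count of 0 became 2 with a replicate block, 2 without both arrays of high muscle signal and 0 to 1 with single arrays left out. The median of the 36 genes was 0.021 with arrays centred on their medians, and between -0.026 and 0.019 with single arrays left out. Of the 36 genes 15 kept the sign of their difference throughout, among them Rpgrip1, Spata7, Ift46, Ift57 and Ift140. The groups of these named genes did not overlap, so leaving out arrays or a replicate block could not turn their sign. Centring on medians turned the sign of Arl3 (0.00066), Bbs5 (0.019), Bbs7 (0.026), Bbs9 (0.013), Cep290 (0.0035), Ift172 (0.026), Ift74 (0.024) and Iqcb1 (0.0012), and quantile normalization that of Ttc8 (-0.00071). The mean over probe sets turned Bbs7 (0.15), Ift122 (-0.0082), Kif3a (0.021) and Tulp3 (0.19). The replicate block turned Ift52 (-0.021), Ift81 (-0.026), Lca5 (-0.023), Rp2 (0.073) and Ttc8 (-0.015). No control shares the number of diabetic replicate 3, so the block gave the same differences as leaving that array out. Leaving out both arrays of high muscle signal turned Ift52 (-0.020), Ift74 (0.072), Ift81 (-0.077), Lca5 (-0.020), Nphp4 (-0.017), Rp2 (0.21), Ttc8 (-0.038) and Tulp3 (0.30). With single arrays left out 19 genes changed sign: Arl3 (-0.081 to 0.023), Bbs12 (-0.026 to 0.14), Bbs2 (-0.088 to 0.12), Bbs5 (-0.077 to 0.035), Bbs7 (-0.12 to 0.061), Bbs9 (-0.089 to 0.029), Ift122 (-0.016 to 0.14), Ift172 (-0.054 to 0.020), Ift43 (-0.0010 to 0.12), Ift52 (-0.021 to 0.095), Ift74 (-0.11 to 0.076), Ift81 (-0.029 to 0.087), Iqcb1 (-0.12 to 0.039), Kif3a (-0.17 to 0.019), Lca5 (-0.025 to 0.12), Mkks (-0.31 to 0.11), Rp2 (-0.19 to 0.090), Ttc8 (-0.015 to 0.043) and Tulp3 (-0.37 to 0.28). The cause was not tested. Leaving out a control leaves 1 control array, which is assumed to vary like the diabetic ones. The labels do not say that replicate numbers mark a pairing. The deviations of same-numbered pools correlated across genes at 0.131 for replicate 1 and -0.141 for replicate 2, and with 2 controls the mismatched numbers give the same sizes with the opposite sign, so this check cannot tell whether the numbers pair the pools.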
